A study of Mus musculus with 4 samples.

Results

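The 10 glycolysis and glucose uptake genes examined here were the glucose transporters Slc2a1 and Slc2a3 and the enzyme genes Hk1, Hk2, Pfkl, Aldoa, Tpi1, Pgk1, Pkm and Ldha. They were picked by name out of 46983 gene identifiers in the tables, each with its values summed per identifier, and all 10 were found. RNA was sequenced from the mouse larynx at E10.5, at 32 to 35 somites, to ask which transcripts depend on Sonic hedgehog (Shh), a secreted signal made by the foregut epithelium. There were 2 Shh-/- libraries, numbered 1 and 2, and 2 WT libraries, numbered 4 and 6, and each was a pool of 3 larynxes. Shh-/- embryos carried the null allele Shhtm1amc, kept on Swiss Webster mice, and WT embryos were Swiss Webster. The sample labels spell the mutants' genotype as Shh+/-, whereas the series design and the study's methods give Shh-/-, the name used here. The null allele is present in every tissue from conception, although Shh transcript was still listed in the mutants. Each pool held all cell types of the dissected larynx.

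Glycolysis takes up glucose through SLC2A transporters, traps it by phosphorylation, cleaves it to trioses and ends in pyruvate, with a net gain of ATP. Lactate dehydrogenase then turns pyruvate into lactate and regenerates NAD+, so the pathway can run without oxygen. Early embryonic tissues are known for a high rate of glycolysis to lactate, and hypoxia-inducible factors (HIF) and Myc are known activators of many of these genes.

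Values are in TPM, transcript abundances that are scaled for transcript length and sum to the same total in each library. Aligned bases, recovered from coverage and FPKM, came to 1.37 gigabases in Shh-/- 1 and to between 2.85 and 3.13 gigabases in the other 3 pools, so Shh-/- 1 was the shallowest. Shh itself stood at 10.4 and 10.8 TPM in the mutants against 23.7 and 42.1 TPM in WT, a log2 fold change of -1.49 (SE 0.28) with an adjusted p of 0.0895 in limma. Ptch1, the Hedgehog receptor and a direct target of the pathway, fell from 57.8 and 55.1 TPM in WT to 12.9 and 13.8 TPM in Shh-/-, a log2 fold change of -2.00 (SE 0.12, limma adjusted p = 0.0319). Neuron and muscle markers summed higher in both Shh-/- pools than in both WT pools. The 12 neuron markers summed to 853 and 943 TPM against 236 and 162 TPM, led by Nefm and Tubb3, and the 9 tested muscle markers summed, with Ttn and Nppa, to 191 and 305 TPM against 72.7 and 83.3 TPM, with Nppa at 0 in every pool.

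None of the 10 genes passed an adjusted p of 0.05 between Shh-/- and WT, and the sums of the 10 genes overlapped between the groups. The genes did not move as a block. Slc2a3, Hk1, Pfkl and Tpi1 had both Shh-/- pools above both WT pools, Pgk1 had both below by a narrow margin, and the pools overlapped for Slc2a1, Hk2, Aldoa, Pkm and Ldha. The comparison was limma on log2(TPM + 1), adjusted over the 16972 genes whose mean TPM reached 1, of which 0.725% passed an adjusted p of 0.05, 95 genes higher and 28 lower in Shh-/-. Under an adjusted p of 0.10 lay 1 of the 10 genes, Hk1, against 5.06% of all tested genes. At an unadjusted p under 0.05 there were 4 of the 10, against 24.8% of all tested genes, and all 4 were higher in Shh-/-, the direction and threshold met by 17.5% of all tested genes. The same 4 genes had both Shh-/- pools above both WT pools, as did 38.0% of all tested genes, and 1 gene had both below, as did 22.7%. The fitted change was above 0 for 7 of the 10 genes, or for 5 after median centring or after correction for GC content and length, and for 58.3% of all tested genes. The median log2 fold change was 0.18 over the 10 genes and 0.08 over all tested genes. With 2 pools against 2, an exact permutation test of a gene on its own cannot go below a two-sided p of 0.33. The labels say nothing beyond the pooling about what separates replicates. The p-values rest on the spread between these pools, which limma moderates with that of other genes of similar level. In bulk tissue, fewer cells of a type and less RNA per cell cannot be told apart, which holds for every value here.

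**Figure D1:**
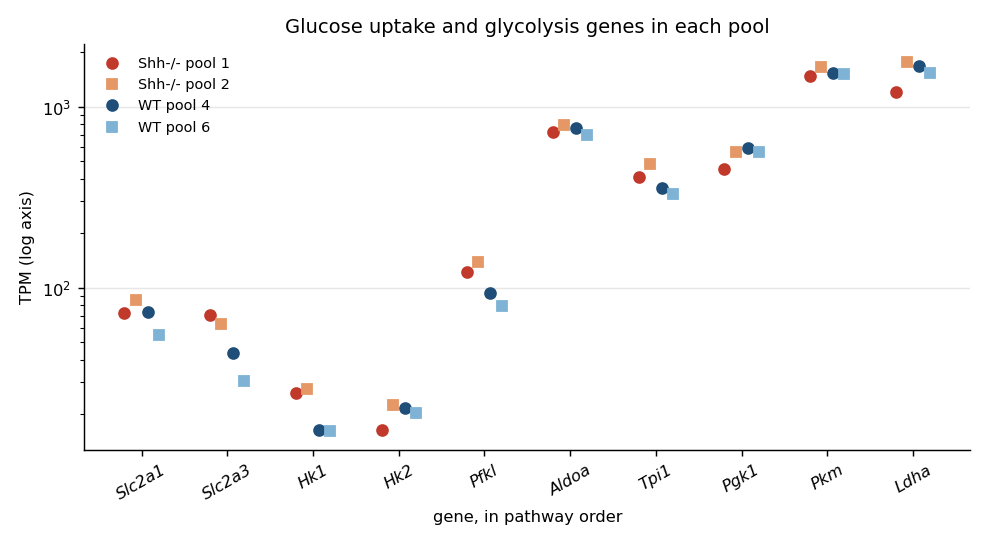
TPM of the 10 genes in each of the 4 pools, on a log axis, with the genes in pathway order; each point is 1 pool of 3 larynxes. The red and orange Shh-/- points lie above both blue WT points for Slc2a3, Hk1, Pfkl and Tpi1, and for Ldha the point of Shh-/- 1, at 1203 TPM, lies below the other 3.

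The promoters of the genes are shown because HIF and Myc are known to act through short motifs in them. Whether the motifs relate to the changes in TPM was not tested. RefSeq windows on GRCm38.p6, the assembly also called mm10, run from 250 bases before to 50 bases after an annotated start, and 14 windows belonged to 9 of the 10 genes. Searched on both strands were the core of the hypoxia response element, as ACGTG or GCGTG, and the E-box CACGTG, whose every occurrence also holds ACGTG on each strand. Printed 5′ to 3′ on the strand of the gene, with matches in capitals, are windows of 3 genes with both Shh-/- pools higher, Hk1 at chr10:62340372-62340671 on the minus strand, Pfkl at chr10:78009758-78010057 on the minus strand and Tpi1 at chr6:124814109-124814408 on the minus strand, then Pgk1 at chrX:106186850-106187149 on the plus strand, which had both lower, and Ldha at chr7:46845554-46845853 on the plus strand, whose pools overlapped.
Hk1: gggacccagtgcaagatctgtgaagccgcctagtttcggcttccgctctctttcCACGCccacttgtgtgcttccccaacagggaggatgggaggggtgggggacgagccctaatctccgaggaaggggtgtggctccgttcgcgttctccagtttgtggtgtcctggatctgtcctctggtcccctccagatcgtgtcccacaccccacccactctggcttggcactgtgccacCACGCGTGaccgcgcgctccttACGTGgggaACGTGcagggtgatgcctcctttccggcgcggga
Pfkl: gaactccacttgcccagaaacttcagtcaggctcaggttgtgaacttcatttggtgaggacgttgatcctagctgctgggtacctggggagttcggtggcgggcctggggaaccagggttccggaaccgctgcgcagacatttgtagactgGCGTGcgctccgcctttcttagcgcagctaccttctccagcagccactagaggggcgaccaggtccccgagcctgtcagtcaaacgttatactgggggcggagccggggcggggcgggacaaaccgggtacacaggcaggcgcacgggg
Tpi1: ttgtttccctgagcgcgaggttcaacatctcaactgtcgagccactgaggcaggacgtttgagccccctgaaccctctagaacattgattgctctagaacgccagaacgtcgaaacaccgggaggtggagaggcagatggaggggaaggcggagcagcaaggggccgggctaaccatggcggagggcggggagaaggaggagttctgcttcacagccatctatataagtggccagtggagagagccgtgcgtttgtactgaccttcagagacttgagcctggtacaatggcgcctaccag
Pgk1: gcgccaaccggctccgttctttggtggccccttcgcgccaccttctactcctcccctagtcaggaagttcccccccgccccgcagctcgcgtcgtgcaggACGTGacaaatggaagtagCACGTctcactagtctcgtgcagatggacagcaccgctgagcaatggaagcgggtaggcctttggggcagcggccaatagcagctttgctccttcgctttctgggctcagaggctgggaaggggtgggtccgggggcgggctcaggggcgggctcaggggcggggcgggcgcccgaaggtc
Ldha: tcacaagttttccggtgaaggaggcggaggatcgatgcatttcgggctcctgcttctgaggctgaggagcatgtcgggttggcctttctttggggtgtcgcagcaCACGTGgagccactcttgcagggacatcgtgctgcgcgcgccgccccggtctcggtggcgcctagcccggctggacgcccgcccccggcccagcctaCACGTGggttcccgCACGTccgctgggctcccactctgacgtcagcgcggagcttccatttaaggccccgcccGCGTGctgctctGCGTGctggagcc
The Ldha window held 7 matches to ACGTG or GCGTG, of which 4 are the 2 E-boxes read on both strands, so 5 with each E-box counted once. The Hk1 window held 5, of which 2 overlap within CACGCGTG, 1 on each strand, and are counted separately. The Pgk1 window held 2, the Pfkl window 1 and the Tpi1 window 0. Among the genes with windows, 8 of 9 had at least 1 match in 10 of the 14 windows, and 1 gene, Ldha, had an E-box. Of all 32851 windows, 43.8% held ACGTG or GCGTG, 8.93% held 3 or more such matches and 7.15% held CACGTG, and of the 21262 windows of protein-coding genes the shares were 49.3%, 11.3% and 7.84%. The printed windows held from 57.3% (Tpi1) to 67.3% (Ldha) G and C. Medians were 52.7% over all windows and 56.3% over those of protein-coding genes, and base composition was not matched for. Hk1 and Ldha each have another window, not printed, with 0 and 2 matches. Of the other genes whose pools overlapped, also not printed, Slc2a1 and Hk2 each held 2 matches. Aldoa held 1, 1 and 0 in its windows, and Pkm 0 and 2. A match is only a run of letters, and no binding was measured here.

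Glucose enters the cell through the transporters. Slc2a1 (GLUT1, chr4:119108711-119137983, plus strand) encodes the widely expressed transporter, and it stood at 72.4 and 85.1 TPM in the mutants against 72.9 and 55.1 TPM in WT. WT 4 lay just above Shh-/- 1, so the groups overlapped, and the log2 fold change of 0.30 (SE 0.17, limma adjusted p = 0.332) did not pass. Slc2a3 (GLUT3, chr6:122727809-122801640, minus strand), the high-affinity transporter best known from neurons, stood at 70.8 and 63.3 TPM in Shh-/- and at 43.8 and 30.5 TPM in WT. Both mutant pools were the higher ones, and the log2 fold change of 0.85 (SE 0.20, 95% interval 0.35 to 1.36) had an unadjusted p of 0.00767 and an adjusted p of 0.111 in limma. From the coverage column it was 0.51, and the groups overlapped. Mean TPM was 67.0 ± 5.30 in the mutants and 37.2 ± 9.39 in WT (SD, n = 2 pools each), a ratio of 1.81. The 12 neuron markers moved the same way, all 12 higher in Shh-/- and 6 of them past an adjusted p of 0.05, and their part in the value of Slc2a3 was not tested. A gene listed as RP23-46L17.4, at 11.2 TPM at most, overlaps Slc2a3 on its strand. Slc2a1 made up 50.6% and 57.4% of the Slc2a1 and Slc2a3 transcripts in the mutants against 62.5% and 64.3% in WT. The difference of the mean shares, Shh-/- minus WT, was -9.45 percentage points, and these shares do not overlap between the groups. By the coverage column, which lists Slc2a3 far lower, the share was 93.8% and 95.1% in the mutants against 94.0% and 96.6% in WT, and the groups overlapped.

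**Figure D2:**
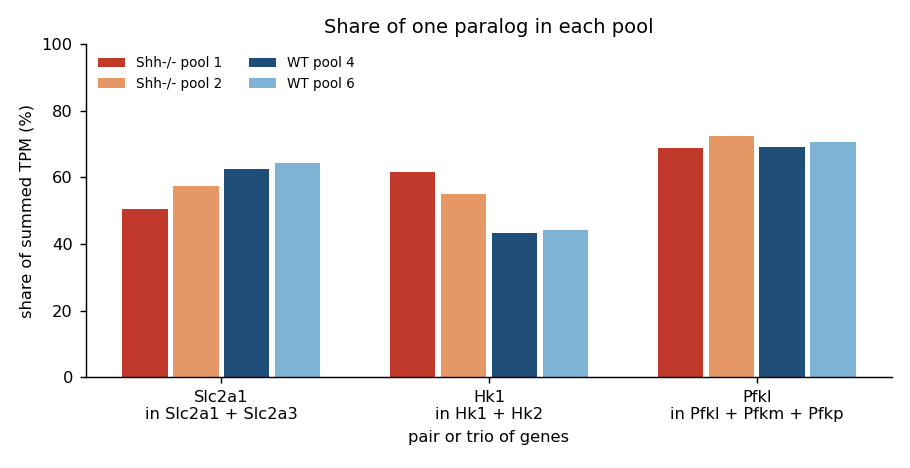
Share of Slc2a1 in Slc2a1 + Slc2a3, of Hk1 in Hk1 + Hk2 and of Pfkl in Pfkl + Pfkm + Pfkp, in percent of the summed TPM, with 1 bar for each of the 4 pools. The Hk1 bars stand at 61.7% and 55.1% in Shh-/- and at 43.2% and 44.1% in WT, while the Pfkl bars overlap between the groups.

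Hexokinases trap glucose as glucose 6-phosphate. Hk1 (chr10:62268855-62379908, minus strand), the isoform expressed in most tissues, stood at 26.2 and 27.5 TPM in Shh-/- and at 16.4 and 16.1 TPM in WT. The pools of each group lay close together and the groups apart, with means of 26.9 ± 0.94 and 16.3 ± 0.27 TPM (SD, n = 2), a log2 fold change of 0.69 (SE 0.12, 95% interval 0.37 to 1.01) and the lowest adjusted p of the 10 genes, 0.0828 in limma. Hk2 (chr6:82725025-82774454, minus strand), the inducible isoform of muscle, embryo and tumours, stood at 16.3 and 22.4 TPM in Shh-/- and at 21.6 and 20.4 TPM in WT. The Shh-/- pools lay on either side of the WT pools, which gave a log2 fold change of -0.13 (SE 0.19, adjusted p = 0.684 in limma), which turned to 0.09 without Shh-/- 1. Of this pair, Hk1 had the higher TPM in both Shh-/- pools and Hk2 in both WT pools, an order that holds in TPM and FPKM and not in the coverage column, where Hk2 was the higher in all 4 pools. The share of Hk1 in the pair was 58.4 ± 4.61% in Shh-/- and 43.7 ± 0.62% in WT (SD, n = 2), a difference of 14.7 percentage points that was not tested. By coverage the share of Hk1 was 18.8% and 12.8% in the mutants against 9.75% and 9.03% in WT, also apart but far lower.

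Phosphofructokinase makes fructose 1,6-bisphosphate, the committed step of the pathway. Pfkl (chr10:77986947-78010083, minus strand), its liver-type subunit, stood at 123 and 138 TPM in Shh-/- and at 93.3 and 79.5 TPM in WT. Both mutant pools were the higher ones, and the log2 fold change of 0.59 (SE 0.13, 95% interval 0.26 to 0.92) had an adjusted p of 0.104 in limma. Among the 3 subunit genes, Pfkl held 68.9% and 72.5% of the TPM in Shh-/- and 69.0% and 70.7% in WT, so its share overlapped between the groups. Pfkm, the muscle-type subunit, stood at 46.3 and 42.0 TPM against 32.8 and 29.0 TPM, for which the log2 fold change was 0.50 (adjusted p = 0.124 in limma). The tested muscle markers were all higher in Shh-/- as well, 2 of 9 past an adjusted p of 0.05, and their part in Pfkl and Pfkm was not tested.

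Aldolase and triose phosphate isomerase split the hexose and interconvert the trioses. Aldoa (chr7:126795234-126800751, minus strand) stood at 720 and 788 TPM in Shh-/- and at 759 and 699 TPM in WT. The pools interleave and the log2 fold change was 0.05 (SE 0.10, 95% interval -0.20 to 0.30, adjusted p = 0.774 in limma). Tpi1 (chr6:124810586-124814296, minus strand) stood at 410 and 479 TPM in Shh-/- and at 354 and 331 TPM in WT. Both mutant pools lay above both WT pools, with a log2 fold change of 0.37 (SE 0.11, 95% interval 0.08 to 0.66) and an adjusted p of 0.151 in limma.

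Phosphoglycerate kinase and pyruvate kinase are the ATP-yielding steps. Pgk1 (chrX:106187100-106203699, plus strand) stood at 450.5 and 560.7 TPM in Shh-/- and at 589.1 and 560.9 TPM in WT. Shh-/- 2 and WT 6 were all but equal, so the ordering of both Shh-/- pools under both WT pools rests on less than 1 TPM, and the log2 fold change of -0.19 (SE 0.13, 95% interval -0.53 to 0.14) had an adjusted p of 0.39 in limma. Pkm (chr9:59656368-59679375, plus strand), which encodes both the M1 and M2 forms of pyruvate kinase by alternative splicing, stood at 1473 and 1652 TPM in Shh-/- and at 1537 and 1506 TPM in WT. The WT pools lay between the mutant pools, and the log2 fold change was 0.04 (SE 0.10, 95% interval -0.21 to 0.28, adjusted p = 0.832 in limma). The tables give gene totals, so the 2 forms are not told apart.

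Lactate dehydrogenase A ends the pathway. Ldha (chr7:46841475-46855627, plus strand) stood at 1203 and 1754 TPM in Shh-/- and at 1678 and 1540 TPM in WT. The Shh-/- pools held its lowest and its highest value and differed from each other by 0.54 on the log2 scale, against 0.12 between the WT pools. The log2 fold change was -0.15 (SE 0.19, 95% interval -0.65 to 0.35, adjusted p = 0.654 in limma). It was 0.13 without Shh-/- 1, the shallowest pool, and reached -0.42 without Shh-/- 2, so its direction was set by which mutant pool was kept. Ldhb, the other main lactate dehydrogenase subunit, stood at 282 and 289 TPM in Shh-/- and at 242 and 251 TPM in WT, a log2 fold change of 0.21 (adjusted p = 0.216 in limma), or 0.10 with its near-identical copy Gm5514 added.

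The 10 genes together took 4564 and 5571 TPM in the mutants against 5165 and 4839 TPM in WT, which is 0.456%, 0.557%, 0.517% and 0.484% of the libraries. The means of 5067 ± 712 and 5002 ± 231 TPM (SD, n = 2) differ by 0.02 on the log2 scale, less than the distance between the Shh-/- pools, and by 0.16 without Shh-/- 1 and -0.13 without Shh-/- 2. Pkm and Ldha alone made up 58.6% and 61.2% of the sum in Shh-/- and 62.2% and 63.0% in WT. In WT the mean levels ran from Ldha (1609 TPM) through Pkm, Aldoa, Pgk1, Tpi1, Pfkl, Slc2a1, Slc2a3 and Hk2 to Hk1 (16.3 TPM), and no neighbours in that order overlapped between the 2 pools. In Shh-/- the order differed in that Pkm stood above Ldha and Hk1 above Hk2, and the pools of Pkm and Ldha overlapped, as did those of Pgk1 and Tpi1. The spread within the groups ran through the set. Shh-/- 2 was above Shh-/- 1 for 9 of the 10 genes, the exception being Slc2a3, and WT 4 was above WT 6 for all 10. Shh-/- 2 gave the highest value for 8 genes, and the lowest value came from WT 6 for 6 genes and from Shh-/- 1 for 4.

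Several of the genes have near-identical copies in the genome, to which the same short reads can align, and how such reads were shared out is not given in the sources used here. Copies were genes with at least 95% identity over at least 300 bases of transcript. Tpi1 had 1, Tpi-rs11, listed at 125 and 159 TPM in Shh-/- and at 131 and 121 TPM in WT, which is 30.5% to 37.1% of Tpi1. Pgk1 had 2, Gm5537 and Pgk1-rs7, at 59.1% to 61.4% of Pgk1, and Pkm had Gm6560 at 17.8% to 18.7% of Pkm. The copy of Ldha, Gm11814, stood at 0.27% to 0.34% of Ldha, and none was found for Slc2a1, Slc2a3, Hk1, Hk2, Pfkl or Aldoa. With the copies added, the log2 fold change was 0.32 for Tpi1, -0.19 for Pgk1, 0.04 for Pkm and -0.15 for Ldha, so the levels of Tpi1, Pgk1 and Pkm are uncertain by these amounts while their changes moved little. A larger move was seen outside the 10 genes. Gapdh, often taken as a constant reference, stood at 50.2 and 109 TPM in Shh-/- and at 164 and 131 TPM in WT, and its 72 copies summed to 975 and 1117 TPM against 1377 and 1407 TPM. Its log2 fold change was -0.98 alone (adjusted p = 0.201 in limma) and -0.46 with the copies added (adjusted p = 0.12).

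**Figure D3:**
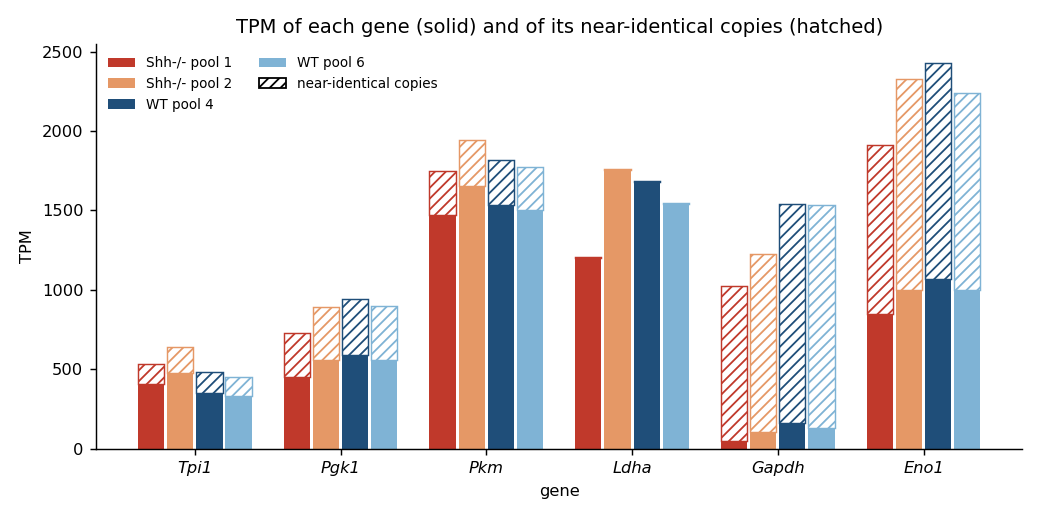
TPM of Tpi1, Pgk1, Pkm, Ldha, Gapdh and Eno1 in the 4 pools (solid) with the summed TPM of their near-identical copies stacked on top (hatched). Copies are a minor part of Tpi1, Pkm and Ldha, and for Gapdh and Eno1 they hold most of the bar in every pool.

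The 4 genes with both Shh-/- pools higher gave smaller changes after correction for base composition, and some changed with the column used. Transcripts of Hk1 and Pfkl are 56.4% and 57.1% G and C, those of Pkm and Aldoa 57.7% and 56.9%, against a median of 49.6% over tested genes. After correction of each pool for GC content and length, the log2 fold change of Hk1 was 0.30 (adjusted p = 0.296), that of Pfkl 0.19 (0.437), that of Tpi1 0.21 (0.378) and that of Slc2a3 0.72 (0.15), all from limma. The same correction took Slc2a1 to 0.00 and turned Aldoa to -0.21 and Pkm to -0.32. It lowered Hk2 from -0.13 to -0.38, Pgk1 from -0.19 to -0.27 and Ldha from -0.15 to -0.27. The median of the 10 genes then lay at -0.11, with 5 of them above 0 and 1, Slc2a3, at an unadjusted p under 0.05. Whether the GC relation came from the libraries or from the tissue was not tested. Computed from the coverage column, Slc2a3 had a log2 fold change of 0.51 (adjusted p = 0.401) with overlapping groups, and Hk1 and Pfkl kept both Shh-/- pools higher at 0.55 (0.171) and 0.60 (0.0956). For Slc2a3 and Hk1 that column reached 5.92% to 9.57% and 10.9% to 13.3% of the level given by FPKM, whereas for Pkm it reached 93.6%. Ldha was also low at 30.2% to 33.6%, followed by Aldoa at 40.0% to 40.7% and Tpi1 at 56.8% to 57.6%. Slc2a1, Hk2, Pfkl and Pgk1 lay between Tpi1 and Pkm.

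**Figure D4:**
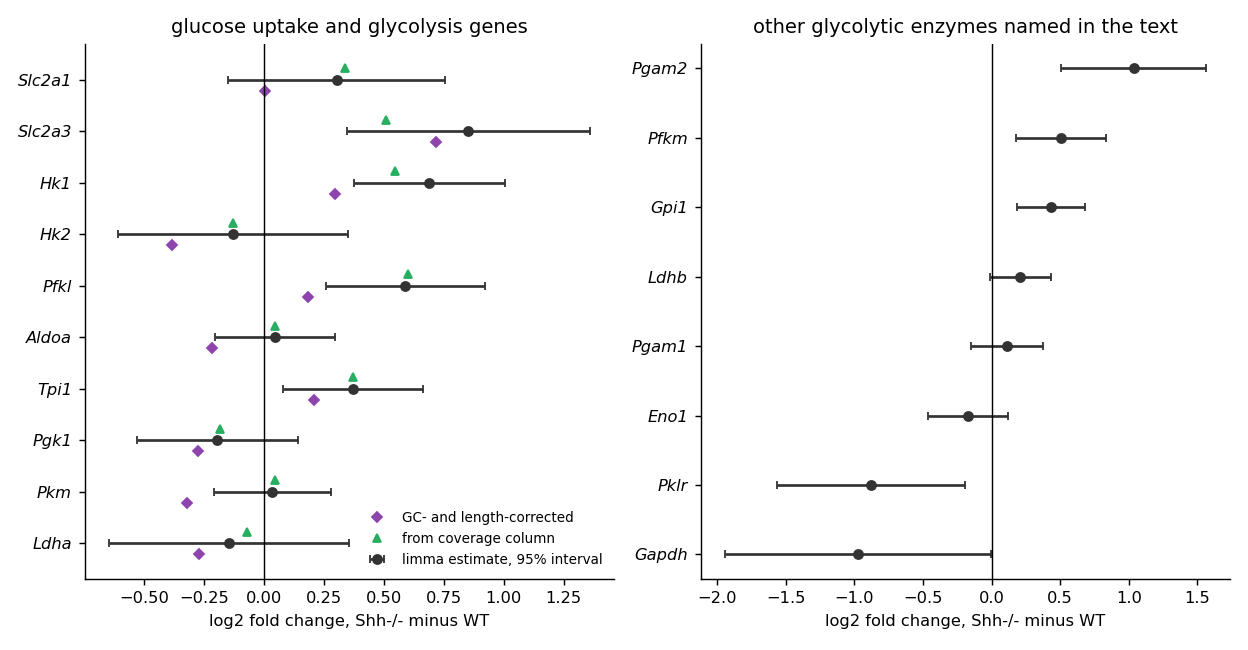
Log2 fold change of Shh-/- against WT for the 10 genes (left) and for the 8 other glycolytic enzymes named in the text (right), with limma's 95% interval as a bar, on separate horizontal scales. The diamonds and triangles on the left give the value after correction for GC content and length and the value from the coverage column. The diamonds of all 10 genes lie to the left of their circles, and the median over all tested genes moved by -0.10 as well.

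In the rest of the pathway likewise no gene passed. Of 18 other tested glycolytic enzymes, 12 were fitted higher and 6 lower in Shh-/-, their median log2 fold change was 0.18, and none passed an adjusted p of 0.05 in limma (6 had an unadjusted p under 0.05). For comparison with this list and those below, 58.3% of all tested genes were fitted higher and 24.8% had an unadjusted p under 0.05 in limma. Gpi1, which turns glucose 6-phosphate into fructose 6-phosphate between the hexokinase and phosphofructokinase steps, stood at 222 and 236 TPM in Shh-/- and at 175 and 164 TPM in WT (0.43, adjusted p = 0.104). Pgam2, the muscle phosphoglycerate mutase, stood at 6.55 and 8.49 TPM against 2.88 and 3.39 TPM (1.04, adjusted p = 0.0955), beside the muscle markers given above. Eno1, the main enolase, had a log2 fold change of -0.17 (adjusted p = 0.383), or -0.14 with its 3 copies, listed at 123% to 133% of its level, added. Pgam1 had 0.11 (0.521), which turned to -0.05 after GC correction. Pklr, the liver and red cell pyruvate kinase, stood at 3.56 and 6.20 TPM against 8.91 and 10.2 TPM (-0.88, adjusted p = 0.151). The 11 erythroid markers were all fitted lower, with none past an adjusted p of 0.05 and 0 at an unadjusted p under 0.05 in limma. Their sums overlapped, at 11855 and 17969 TPM in Shh-/- and 16242 and 18404 TPM in WT, and their part in the value of Pklr was not tested. Pgk2 and Ldhc, the testis forms, were listed at 0 in every pool, and Hk3 and Eno4 lay under 1 TPM.

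Of the 11 other tested glucose and lactate transporters, 8 were fitted higher and 3 lower, with none past an adjusted p of 0.05 (1 at an unadjusted p under 0.05). Slc2a4, the insulin-responsive transporter GLUT4, stood at 19 and 19 TPM in Shh-/- and at 15.3 and 13.4 TPM in WT (0.39, adjusted p = 0.183). Slc16a1 and Slc16a3, the lactate carriers MCT1 and MCT4, overlapped between the groups, with log2 fold changes of -0.05 and 0.19, and Bsg, their chaperone, with 0.32. Among 9 tested regulators 7 were fitted higher, 0 passed the adjusted threshold and 3 reached an unadjusted p under 0.05. Txnip, an arrestin-like protein that lowers glucose uptake by drawing SLC2A1 off the membrane and whose transcript is induced by glucose, stood at 90.8 and 84.3 TPM in Shh-/- and at 44.9 and 33.5 TPM in WT. Its log2 fold change was 1.15 (SE 0.17), with an adjusted p of 0.0675 in limma. Pfkfb3, which makes the activator of phosphofructokinase, stood at 14.3 and 19.1 TPM against 9.39 and 12.5 TPM (0.57, adjusted p = 0.2), and Tigar, which opposes it, at 7.99 and 7.57 TPM against 4.87 and 5.70 TPM (0.48, adjusted p = 0.177).

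Beyond pyruvate, 12 tested genes of entry to the mitochondria were split into 6 higher and 6 lower, with a median of -0.02, none past an adjusted p of 0.05 and 1 at an unadjusted p under 0.05. That gene was Pdk2, a kinase that switches off pyruvate dehydrogenase, at 13.9 and 12.1 TPM in Shh-/- and at 8.17 and 6.74 TPM in WT (0.73, adjusted p = 0.115), while its HIF-induced relative Pdk1 had a log2 fold change of 0.27 (adjusted p = 0.285). In the pentose phosphate pathway 7 of 8 genes were fitted higher, by 0.25 at most, and none passed or had an unadjusted p under 0.05. Of 11 tested genes of gluconeogenesis and glycogen, 9 were fitted higher, against 58.3% of all tested genes, with a median of 0.42. In limma 0 passed the adjusted threshold, and 7 reached an unadjusted p under 0.05, against 24.8% of all tested genes. Among them Gys1, glycogen synthase, stood at 28.0 and 28.0 TPM in Shh-/- and at 16.7 and 18.7 TPM in WT (0.63, adjusted p = 0.0966), and Pcx, pyruvate carboxylase, at 16.9 and 16.4 TPM against 10.7 and 7.82 TPM (0.80, adjusted p = 0.114).

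Among the known activators, Hif1a stood at 93.4 and 89.5 TPM in Shh-/- and at 88.7 and 93.9 TPM in WT, a log2 fold change of 0.00 (adjusted p = 0.99 in limma) whose sign changed with the scaling. The 10 HIF factors and oxygen sensors were all fitted higher, against 58.3% of all tested genes, with a median of 0.30. In limma none passed an adjusted p of 0.05 and 5 had an unadjusted p under 0.05, against 24.8% of all tested genes. The 5 included Egln2, an oxygen-sensing hydroxylase, at 0.55 (adjusted p = 0.106). Of 18 hypoxia-induced genes outside glycolysis 8 were fitted higher and 10 lower, with a median of -0.07, none past an adjusted p of 0.05 and 4 at an unadjusted p under 0.05. Ddit4, an inhibitor of mTORC1 induced by hypoxia and other stresses, stood at 64.1 and 88.0 TPM against 37.5 and 33.8 TPM (1.06, adjusted p = 0.0796), and Plod2, a collagen-modifying enzyme, at 58.5 and 66.0 TPM against 83.6 and 104 TPM (-0.58, adjusted p = 0.125). Vegfa and Bnip3, classic HIF targets, overlapped between the groups, with log2 fold changes of 0.28 and 0.17. The 4 Myc factors split 2 and 2, with Myc at 0.28 and Mycn at -0.22, none past an adjusted p of 0.05 and 0 at an unadjusted p under 0.05. Hedgehog targets, by contrast, were all lower: 6 of 6, with a median of -2.98, and 3 of them, Ptch1, Hhip and Foxf2, fell past an adjusted p of 0.05. The directions of the metabolic lists depended on the scaling. With median centring, the number fitted higher was 10 of 18 other glycolytic enzymes, 7 of 11 transporters, 7 of 9 regulators, 3 of 12 genes of pyruvate entry, 5 of 8 pentose phosphate genes, 7 of 11 genes of gluconeogenesis and glycogen and 7 of 10 HIF factors and sensors. After correction for GC content and length, the median log2 fold change was -0.01 for the other glycolytic enzymes, -0.01 for the transporters, -0.03 for the regulators, -0.05 for the pentose phosphate genes, 0.09 for the HIF factors and sensors and 0.28 for the genes of gluconeogenesis and glycogen.

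**Figure D5:**
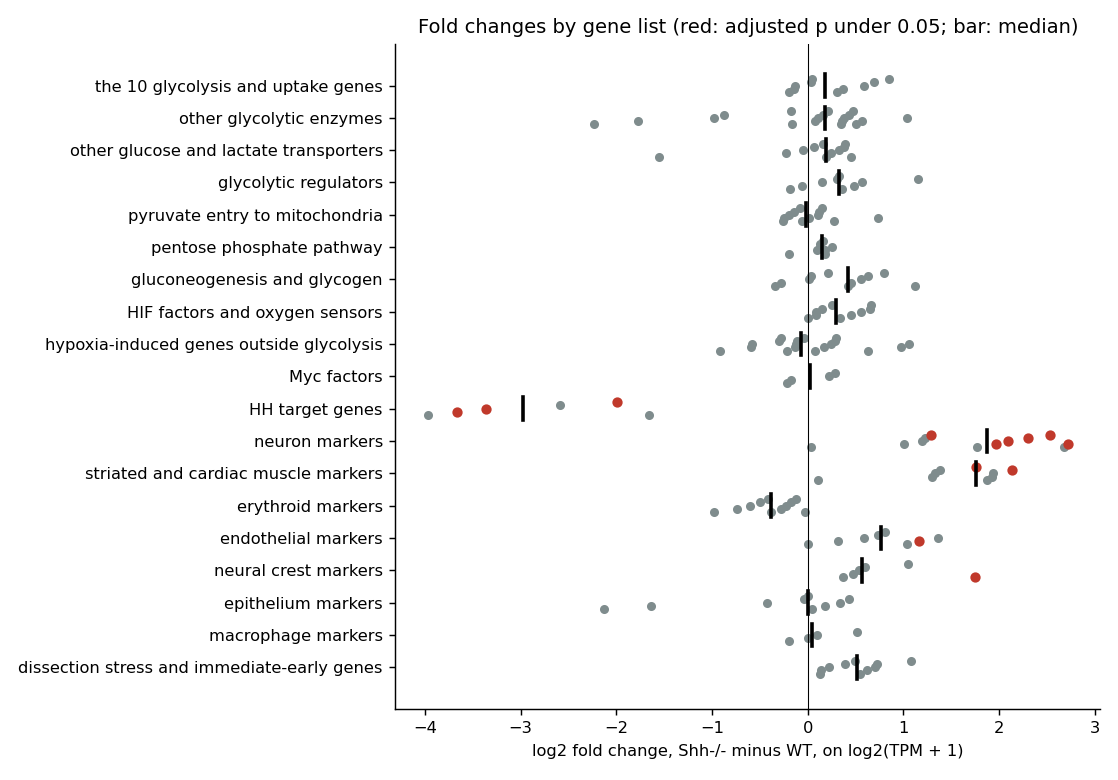
Log2 fold change of each tested gene, Shh-/- against WT, by list, with the median as a black bar and genes past an adjusted p of 0.05 in red. The 10 glycolysis and uptake genes and the other metabolic lists hold no red point, whereas the lists of Hedgehog targets and of neuron, muscle, endothelial and neural crest markers do.

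The other cell type lists are given for comparison with the 10 genes. The 8 endothelial markers were all fitted higher in Shh-/-, with 1 past an adjusted p of 0.05 and a sum of 359 and 417 TPM against 242 and 229 TPM. The 6 neural crest markers were all fitted higher, with 1 past the threshold and a sum of 140 and 121 TPM against 78.1 and 57.1 TPM. The 9 epithelium markers went both ways, with 5 fitted higher and 4 lower, none past the threshold (3 at an unadjusted p under 0.05) and overlapping sums of 701 and 609 TPM against 636 and 632 TPM. Those 3, chosen after their values were seen, were the foregut transcription factors Foxa2, at 5.34 and 9.12 TPM against 29.2 and 39.8 TPM (-2.13, adjusted p = 0.0602), and Nkx2-1, at 6.16 and 3.61 TPM against 15.9 and 17.9 TPM (-1.64, adjusted p = 0.0715), and the keratin Krt8 (0.44, adjusted p = 0.128). Of 4 tested macrophage markers 3 were fitted higher and none passed (0 at an unadjusted p under 0.05). The 10 tested dissection stress and immediate-early genes were all fitted higher, none past the threshold and 5 at an unadjusted p under 0.05, with a sum of 196 and 172 TPM against 137 and 121 TPM. The RNA integrity numbers were 8 and 7.7 for Shh-/- and 7.7 and 9 for WT. The part of these lists and of RNA quality in the values of the 10 genes was not tested.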

How the data were processed

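Poly(A) RNA of 2 Shh-/- and 2 WT pools of 3 larynxes was sequenced as directional single-end libraries. Per the labels and the study's methods, the authors aligned reads with HISAT2 2.1.0 to mm10 and quantified with StringTie 1.3.6. The annotation is not given in the sources used here. The deposited tables give TPM, FPKM and read coverage (signal) per gene, with no counts. The 37 mitochondrial genes are listed at 0.

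TPM was summed per gene identifier. Differences were tested with limma 3.58.1 (R 4.3.3) on log2(TPM + 1), with a trended prior variance, for genes whose mean TPM reached 1, and Benjamini-Hochberg adjusted over 16972 genes at a threshold of 0.05. Fold changes on this scale understate low genes. Aligned bases were taken from coverage over FPKM in 2852 single-transcript genes. Copies were found with blastn 2.17.0 on GENCODE M21 transcripts, which matched 46488 identifiers. The fit was also run on simulated data. Changes planted there were larger than any fitted for the glycolysis and uptake genes, so smaller changes were not covered.

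The 10 genes and all lists were chosen with earlier results of these data known. Named were all 10, any list gene past the threshold, up to 4 per list with the lowest p, and preset pathway genes, with a selection of them printed. Alternatives were other pseudocounts, filters, scalings, columns and thresholds, a GC and length correction, and leaving out each pool. The values from coverage, those with copies added and E-boxes counted once were alternatives chosen after seeing the data. The comparison of protein sequences between paralogs was not run. A result for 1 listed gene is not reported here.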

Additional observations from a re-analysis of the deposited data

How the results depend on the processing

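None of the 10 genes passed an adjusted p of 0.05 under any alternative run, and the lowest adjusted p reached was 0.0770, for Hk1 among protein-coding genes alone. With a threshold of 0.10, 1 of the 10 passed. The number of genes called over the whole table was 123 and depended on the processing: 69 with a pseudocount of 0.1, 0 without a filter (5011 at an unadjusted p under 0.05), 858 at an adjusted p of 0.10, 0 without Shh-/- 1, without Shh-/- 2 or without WT 4 (2800, 3761 and 3551 at an unadjusted p under 0.05) and 16 without WT 6. Leaving out a pool gives fewer samples, and the lone pool is then assumed to vary like the other group. Ptch1, Hhip and Foxf2 lost their call without a filter or without any 1 pool, Hhip and Foxf2 also with a pseudocount of 0.1. Median centring moved every gene by -0.13, GC and length correction moved genes by unequal amounts and their median by -0.10, and 5 of the 10 genes were then above 0 in each, with the median of the 10 at 0.05 and -0.11. With median centring, Aldoa was at -0.080, Pkm at -0.092, Pgam1 at -0.019 and Hif1a at -0.13. With GC and length correction, Aldoa was at -0.21, Pkm at -0.32, Pgam1 at -0.047, Slc16a3 at -0.21, Slc2a8 at -0.012 and Tkt at -0.12. Hif1a was also at -0.016 with quantile normalization, -0.0015 without haemoglobin genes, -0.031 with FPKM and -0.026 with protein-coding genes alone. Leaving out a pool gave log2 fold changes of -0.35 to 0.090 for Hk2, -0.017 to 0.11 for Aldoa, -0.047 to 0.12 for Pkm, -0.42 to 0.13 for Ldha, 0.60 to 1.11 for Slc2a3 0.66 to 0.73 for Hk1, -0.16 to 0.070 for Slc16a1, -0.031 to 0.41 for Slc16a3, -0.039 to 0.043 for Hif1a and -0.052 to 0.38 for Bnip3, and from 5 to 9 of the 10 genes were above 0. The cause of these changes was not tested. No paired analysis was possible because the Shh-/- and WT pools share no replicate numbers. The depth behind a TPM is known only as aligned bases, so no counting interval is given.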
